A study of Populus ussuriensis with 18 samples.

Results

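The step from 48 h to 96 h after cutting was examined at the base of stem cuttings of Populus ussuriensis, a poplar, by comparing the 2 libraries of 96 h with the 2 libraries of 48 h, 4 of the 18 libraries of the series. All groups were basal stem ends of 0.5 cm, taken from 2-week-old plants. These had been raised in vitro, at 25 °C and with 16 h of light a day, and diluted Murashige and Skoog medium with sucrose (20 g/L) fed them. No treatment other than the cut is named, and uncut plants of those times were not analysed here. The 2 times, and 24 h, lie whole days apart and so fall on the same hour of the day, provided that all cuttings were made at one hour. The other libraries, 2 each at 0.5, 1, 2, 6, 12 and 24 h, were used for the spread between libraries and for levels. Libraries from before the cut (0 h) were left out of the test.

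Adventitious roots grow from stems, leaves and other organs that are not roots. At the base of a cutting they arise after a wound response, when cells near the vascular tissue take up division again, organise into primordia and push out through the stem. Auxin carried down the stem gathers at the cut and is the best known trigger of this sequence, while the wound face is sealed and the cutting lives on its own reserves and on new photosynthesis. The deposited tables give locus identifiers without gene names, so roles are not given for single loci, and tissue and cell type markers were not analysed here.

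The 4 libraries held between 29884042 and 30651830 reads, as recovered from the size of the smallest steps between values. Levels are in FPKM, reads scaled by transcript length and by library total, summed over the listed transcripts of a locus. Loci are not independent replicates; across them, Pearson's r was 0.987 between the 48 h libraries, 0.9875 between the 96 h libraries, and between 0.924 and 0.932 across the 2 times. The median absolute difference on the log2 scale was 0.14 within 48 h and 0.13 within 96 h, and the median absolute fold change between the times was 0.28. Whether the 2 libraries of a time came from separate plants is not given, so the p-values measure the spread between these libraries only, which may be technical.

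Between 48 h and 96 h more loci rose than fell on the deposited scale, a lead that median centring turned round, and the largest changes were rises of loci that were near 0 FPKM at 48 h. Of 24511 loci tested, 8267 (33.7%) were called with limma at a Benjamini-Hochberg adjusted p below 0.05, 5310 higher (21.7%) and 2957 lower (12.1%). Most changes were small. Among loci called higher the median log2 fold change was 0.65, and 76.5% rose by less than 2-fold. Among loci called lower the median was -0.66, and 77.6% fell by less than 2-fold. Without 96 h replicate 2 the calls numbered 3350 higher and 1745 lower, and without 48 h replicate 2 they numbered 3737 and 1956. In tissue made of several cell types, a change in the share of a cell type and a change of RNA per cell cannot be told apart.

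Among larger changes, too, rises were the more frequent. At least 2-fold higher were 1246 loci (5.08%) and at least 2-fold lower 663 (2.7%). At least 4-fold higher were 252 (1.03%) against 86 lower (0.351%), at least 8-fold 84 against 8, and at least 16-fold 36 against 1. In all 1246 and all 663 loci of the 2-fold sets, both 96 h libraries lay on the same side of both 48 h libraries (no overlap). The sets were chosen by the values of these same libraries, which largely fixes that outcome. Over all tested loci such a separation was found upwards in 42.2% and downwards in 27.5%. The filter on low values let in loci of both kinds unequally: 855 loci passed it with both 96 h libraries and neither 48 h library, against 271 the other way round. Among the 22089 loci of at least 1 FPKM in all 4 libraries, 4268 were called higher and 2635 lower, 691 and 542 by 2-fold or more, and 80 and 68 by 4-fold or more. In those loci the lead of rises did not grow with the size of the change.

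The prevailing direction of the small changes depended on the scaling. Quantile normalization gave 4387 loci higher and 4246 lower, 50.8% higher in place of 64.2%, and centring every library on its median gave 3745 and 4363, or 46.2%. Over all loci the fold change had a log2 median of 0.08 as deposited, -0.01 with quantile normalization and -0.03 with centring. For changes of at least 2-fold, rises remained the more frequent under both, with 1067 against 1020 loci and 985 against 876. For changes of at least 4-fold they were 227 against 118 and 222 against 106. No locus called in one direction was called in the other under either scaling. Centring moves every fold change by the same small amount, so such a turn was hardly possible under it.

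**Figure D1:**
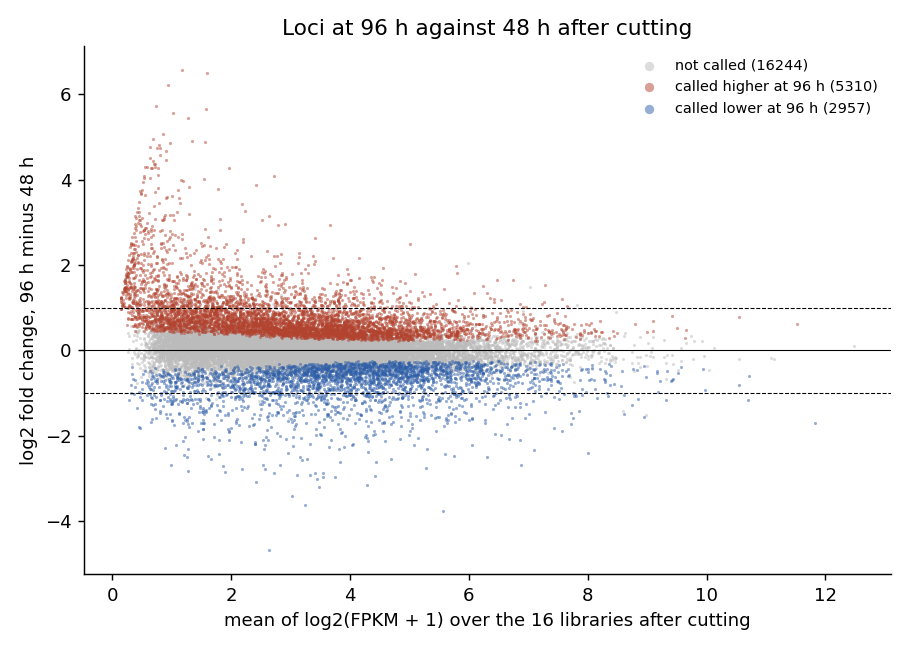
Each point is 1 of the 24511 tested loci, with its mean log2(FPKM + 1) over the 16 libraries after cutting on the horizontal axis and its log2 fold change from 48 h to 96 h on the vertical axis; dashed lines mark 2-fold. The 5310 loci called higher reach beyond 6 on the log2 scale at low mean levels, and only 1 of the 2957 called lower passes -4.

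Loci that were nearly silent at 48 h and clearly present at 96 h were far more numerous than the reverse. Below 1 FPKM in both 48 h libraries and at least 5 FPKM in both 96 h libraries were 106 loci, and 8 showed the opposite pattern. All 106 and all 8 were among the called loci, which such a choice of levels brings about. Of the 106, 86 had also stayed below 1 FPKM in all 12 libraries from 0.5 h to 24 h, so that 96 h was the first sampled time after cutting at which they passed 1 FPKM. Only 2 of the 106 had reached 5 FPKM in any of those 12 libraries. The 86 first seen at 96 h had mean levels at 96 h from 5.61 to 137.7 FPKM, with a median of 9.89, and 18 of them held at least 20 FPKM in both libraries. In these loci the higher 96 h library exceeded the lower by a median ratio of 1.23 and at most by 2.27. The choice of at least 5 FPKM in both libraries limits such ratios, and no ratio over all tested loci is set beside them. Of the 86, 78 have 1 listed transcript, as do 12473 of the 24511 tested loci. Counted over all tested loci, 51 had no FPKM in either 48 h library, and none lacked FPKM in both 96 h libraries. The 51 and the 106 passed the filter on low values only by their 96 h libraries, and the 8 only by their 48 h libraries.

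Potri.003G111300 and Potri.003G206500 had the largest log2 fold changes upwards among loci that passed the rule for naming, which asked for separated libraries and at least 5 FPKM in both libraries of the higher time. Their order was not stable: the former led on the log2(FPKM + 1) scale, and the latter with a pseudocount of 0.1 and when either 48 h replicate 2 or 96 h replicate 1 was left out. In Potri.003G111300 the 48 h libraries held 0.862 and 0.131 FPKM, and the 96 h libraries 148.9 and 126.4 FPKM. Both 48 h values rest on few reads, 26 and 4, and the 96 h values on 4605 and 3856. In the 12 libraries from 0.5 h to 24 h the locus lay between 0 and 0.947 FPKM. Its only listed transcript has a recovered length of 1009 bp.

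At 48 h and 96 h its means were 0.497 ± 0.517 FPKM and 137.7 ± 15.9 FPKM (SD, n = 2 libraries a time). The log2 fold change was 6.57 (SE 0.25, Benjamini-Hochberg adjusted p 3.97e-10, limma). With a pseudocount of 0.1 in place of 1 it was 8.19. At 96 h the locus stood at place 615 of all loci by mean level, and at 48 h at place 25504.

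Potri.003G206500 had a different earlier course. The 48 h level of 0.0894 and 0.135 FPKM came from 5 and 7 reads, and the 96 h level from many more, with 91.4 and 108.6 FPKM from 4845 and 5673 reads. Early after cutting it had been low but present, with 2.70 and 2.69 FPKM at 1 h and 2.13 and 2.50 FPKM at 2 h. The 6 h libraries held 0.279 and 0.483 FPKM. It was thus above 1 FPKM soon after cutting, but no library from 0.5 h to 24 h held more than 2.70 FPKM.

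Its log2 fold change from 48 h to 96 h was 6.50 (SE 0.16, Benjamini-Hochberg adjusted p 1.58e-11, limma). With a pseudocount of 0.1 it was 8.88 (SE 0.40, Benjamini-Hochberg adjusted p 1.03e-07, limma). All 3 listed transcripts were higher at 96 h. Transcript Potri.003G206500.2 of 1803 bp was the highest at 96 h, with 34.5 and 43.5 FPKM, and Potri.003G206500.3 of 1455 bp the lowest, with 26.7 and 31.6 FPKM. The third, of 1890 bp, lay between them.

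Potri.001G107800 had the largest fall, after a build-up to 48 h. It was at 0.0582 and 0.179 FPKM at 0.5 h, between 1.84 and 4.97 FPKM from 1 h to 12 h, and at 32.6 and 21.4 FPKM at 24 h. At 48 h it held 138.8 and 34.3 FPKM, and at 96 h 2.2 and 1.33 FPKM, below both libraries of 1 h, 2 h and 12 h. The 48 h libraries differed from each other by a ratio of 4.05, more than the libraries of any other time after cutting, and both exceeded both 96 h libraries.

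The log2 fold change of Potri.001G107800 was -4.68 (SE 0.43, Benjamini-Hochberg adjusted p 2.64e-06, limma). With 48 h replicate 1 left out the value was -3.69, and with 48 h replicate 2 left out -5.68. When only the 4 compared libraries were fitted, the adjusted p of limma was 0.0676, and the call was lost. Its 2 listed transcripts, of 1134 and 1155 bp, were both lower at 96 h. They went from 77.4 and 18.6 FPKM to 1.35 and 0.759 FPKM in the first and from 61.3 and 15.7 FPKM to 0.847 and 0.573 FPKM in the second.

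Potri.009G140400 fell from a level that had been high since 6 h. It held 2.26 and 3.43 FPKM at 2 h and 1236 and 678.2 FPKM at 6 h. The level was 959.2 and 724.6 FPKM at 12 h. By 24 h the libraries held 551.4 and 455.9 FPKM, and by 48 h 436.2 and 199.7 FPKM. At 96 h it was at 27.0 and 15.7 FPKM, still above every library from 0.5 h to 2 h. The log2 fold change was -3.77 (SE 0.34, Benjamini-Hochberg adjusted p 2.29e-06, limma). The reads behind it fell from 14143 and 6574 at 48 h to 899 and 516 at 96 h.

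**Figure D2:**
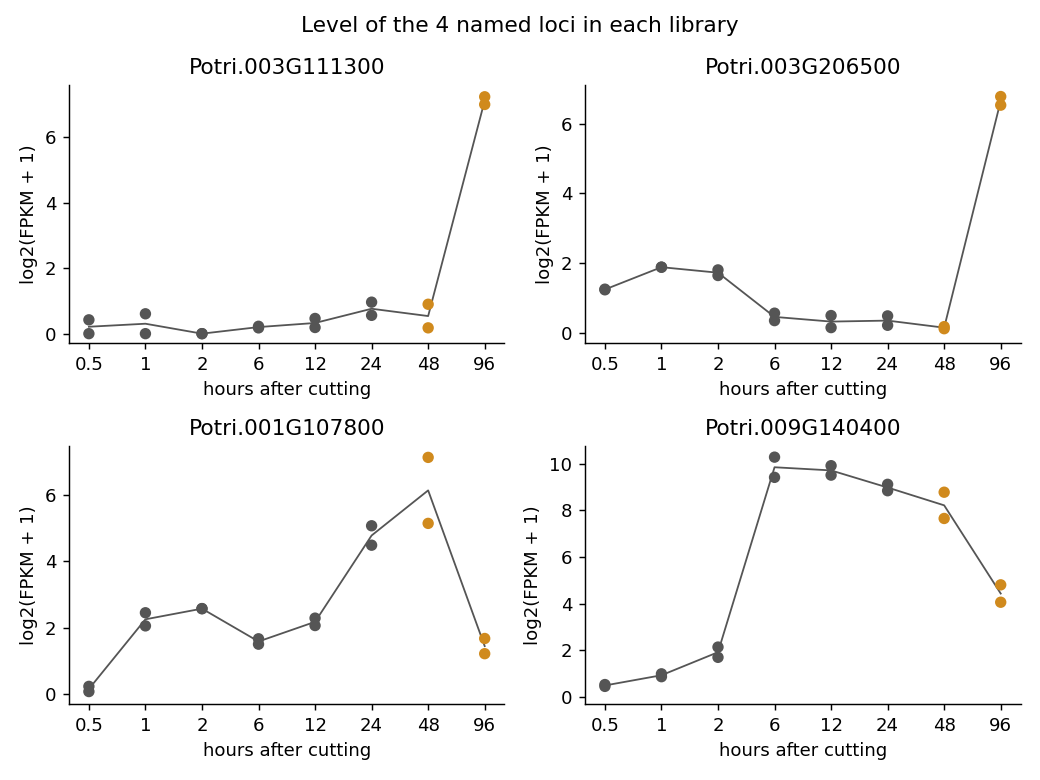
Level of the 4 named loci in each of the 16 libraries after cutting, as log2(FPKM + 1); points are libraries, lines join the means, the 48 h and 96 h libraries are in orange, and the times are equally spaced. The 2 upper loci leave a low level between 48 h and 96 h, and the 2 lower loci drop at 96 h after a peak at 48 h and at 6 h.

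The courses of the 4 loci have counterparts among the changed loci at large. The 12 libraries from 0.5 h to 24 h entered the test only through the spread. They show whether 96 h brought a level not seen at those times after cutting. Levels before the cut (0 h) were not used, so whether a rise was a return to them was not tested. In 902 of the 1246 loci at least 2-fold higher (72.4%), both 96 h libraries lay above all 12 earlier libraries, against 17.8% of all tested loci. The highest mean of the 8 later times fell at 96 h in 972 (78.0%) of the 1246 and earlier than 48 h in 274, of which 104 were highest at 6 h and 85 at 0.5 h. The median of the 1246 loci had stayed close to its 48 h level throughout, between -0.13 and 0 on the log2 scale from 0.5 h to 24 h, and stood at 1.36 at 96 h. Of the 1246, 502 had a 48 h mean under 1 FPKM, where log2(FPKM + 1) makes differences between low levels small. Single loci went both ways: at 2 h the quartiles were -0.76 and 0.41.

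Most of the loci that fell by at least 2-fold had been higher at 48 h than soon after the cut. Relative to 48 h their median was -1.65 on the log2 scale at 0.5 h and -1.45 at 1 h. The 2 h median was -0.92 and the 6 h median -0.37, and by 24 h the distance had come to -0.17. The early values compare with -0.15 at 0.5 h and -0.34 at 1 h for all tested loci. At 96 h the median of the 663 was -1.30. In 487 of the 663 (73.5%) both 48 h libraries lay above both 0.5 h libraries, against 48.7% of all tested loci. The highest mean fell at 48 h in 238 of the 663, between 6 h and 24 h in 230 and between 0.5 h and 2 h in 195. At 96 h, 344 loci (51.9%) were still above both 0.5 h libraries, 255 (38.5%) were below both, and in 64 the libraries overlapped. Both 96 h libraries were below all 12 earlier libraries in 173 (26.1%), against 6.42% of all tested loci. The sets were chosen by their 48 h and 96 h values, so these shares describe them and were not tested.

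The 24 h libraries, also whole days away, give a further reference. Both 96 h libraries were above both 24 h libraries in 1217 of the 1246 loci at least 2-fold higher (97.7%), against 42.8% of all tested loci, and in 26 the libraries overlapped. They were below both 24 h libraries in 593 of the 663 loci at least 2-fold lower (89.4%), against 26.8% of all, and above both in 33. The median log2 difference between 96 h and 24 h was 1.41 in the first set and -1.18 in the second. The same 96 h values had chosen both sets, and the 24 h median of each set lay near its 48 h level. Such shares therefore largely follow from the choice.

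**Figure D3:**
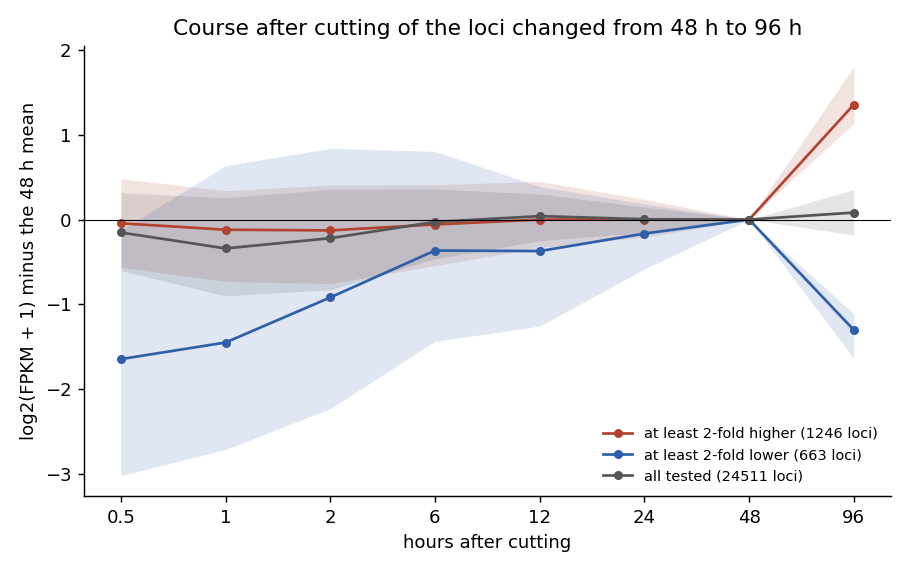
Median level (lines) and quartiles (shaded) of the loci at least 2-fold higher, of those at least 2-fold lower and of all tested loci, as log2(FPKM + 1) minus the 48 h mean of each locus, at 8 equally spaced times in hours after cutting. The median of the loci that rose lies near 0 until 48 h and at 1.36 at 96 h, with quartiles on both sides of 0 before 48 h, and the median of those that fell starts at -1.65 at 0.5 h, is 0 at 48 h by construction and ends at -1.30.

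Direction went with the level of a locus. Among the 954 loci of at least 100 FPKM on average over the 16 libraries, 28.3% were lower at 96 h and 18.4% higher. From 20 to 100 FPKM, 21.8% of 5289 loci were lower and 17.3% higher. From 5 to 20 FPKM the order was reversed, with 10.1% of 10184 loci lower and 20.2% higher, and below 2 FPKM 6.12% of 3367 were lower and 33.1% higher. Loci of low mean level had to reach 1 FPKM in 2 of the 4 libraries to be tested, which more did at 96 h than at 48 h. With quantile normalization 26.4% of the loci of at least 100 FPKM were lower and 24.7% higher, and with median centring 36.1% and 10.8%. Leaving out 48 h replicate 1 gave 10.5% higher, and leaving out 96 h replicate 1 gave 11.8%. With 96 h replicate 2 left out, 11.95% were higher and 18.7% lower.

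The most abundant loci of 48 h were called lower more often than higher. Of 71 loci of at least 500 FPKM in both 48 h libraries, 31 were called lower at 96 h and 6 higher, with a median log2 fold change of -0.36 over the 71, where 12.1% of all tested loci were called lower and 21.7% higher. With quantile normalization 21 were called lower and 11 higher, with a median of -0.04, and with median centring 36 and 4. Chosen the other way, by at least 500 FPKM in both 96 h libraries, 13 of 63 loci were called lower and 13 higher, which became 6 and 19 with quantile normalization and 18 and 9 with median centring. The 100 highest loci held 18.5% and 18.2% of the summed FPKM at 48 h and 15.9% and 15.7% at 96 h. From 0.5 h to 24 h that share lay at 14.8% or more and below both 48 h values. Loci of at least 1000 FPKM numbered 33 and 29 at 48 h and 25 and 23 at 96 h. Loci called higher gained 52036 FPKM in sum, and those called lower lost more in sum with a change of -65330 FPKM.

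Direction also went with transcript length. The loci were divided into 4 classes of nearly equal size by their longest listed transcript. In the longest class, of at least 2346 bp, 29.1% were called higher and 6.41% lower. In the shortest class, up to 1155 bp, 15.3% were called higher and 15.2% lower. Quantile normalization gave 22.3% higher and 10.3% lower in the longest class and 13.4% and 21.3% in the shortest. Median centring gave 18.8% and 10.5% in the longest and 11.6% and 21.0% in the shortest.

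These shares also moved with single libraries, and leaving out any compared library lowered the calls over all loci too. Without 96 h replicate 2 the longest class had 14.8% higher and 4.24% lower, and the shortest 10.8% and 8.76%. Without 48 h replicate 2 the longest had 16.8% and 4.75%, and the shortest 12.2% and 9.76%. Leaving out 48 h replicate 1 or 96 h replicate 1 lowered both shares of the longest class too. Loci called higher remained the more frequent there in each case. The difference between the classes varied with level. From 5 to 20 FPKM, 28.8% of the longest class were higher and 4.53% lower, against 11.8% and 17.0% of the shortest. At 100 FPKM and above, 19.6% of the longest class were higher and 28.04% lower, against 18.9% and 22.0% of the shortest. For changes of at least 2-fold in either direction the shortest class led, with 6.09% higher and 5.14% lower against 3.34% and 0.687% in the longest.

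Libraries of one time differed by length too. The median log2 difference between 96 h and 48 h ranged over the 4 pairs of libraries from 0.11 to 0.27 in the longest class and from -0.04 to -0.01 in the shortest. Between the 48 h libraries it was 0.06 in the longest and -0.06 in the shortest class, and between the 96 h libraries -0.07 and 0.03. The longest class thus stood apart from the shortest by 0.12 between the 48 h libraries and by -0.10 between the 96 h libraries, and by 0.12 to 0.31 across the times, so that the lowest value across the times was no larger than that within 48 h. RNA quality was not analysed here, and the part of transcript length in the calls was not tested.

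**Figure D4:**
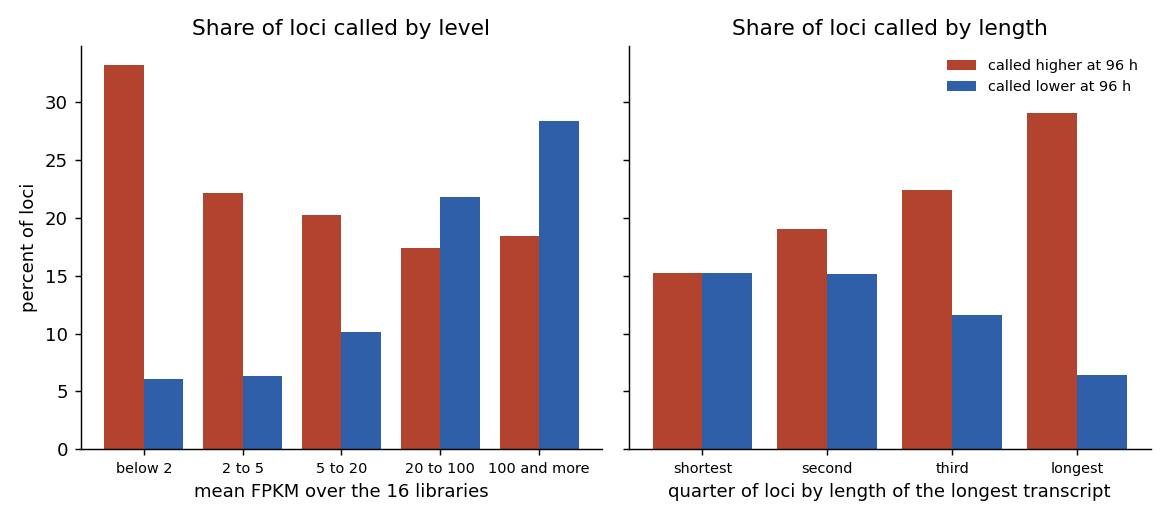
Percent of loci called higher (red) and lower (blue) at 96 h, in 5 classes of mean FPKM over the 16 libraries and in 4 classes by length of the longest listed transcript. On the deposited scale lower loci outnumber higher ones from 20 FPKM upwards, and higher loci reach 29.1% in the longest class.

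Loci next to each other in the order of their identifiers changed together more often than loci further apart. The number within an identifier orders the loci of 1 prefix. Of the tested neighbours next to a locus at least 2-fold higher, 11.0% were at least 2-fold higher too, against 5.08% of all tested loci. Next to a locus at least 2-fold lower 12.1% were so too, against 2.7%. At a distance of 20 identifiers the shares were 5.84% and 3.10%. Runs were short: 181 of the 1246 loci and 106 of the 663 stood in runs of 2 or more, and no run held more than 3. Neighbouring near-identical copies can share reads in the authors' counting, and such copies were not looked for here. The shares are descriptions with no test.

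By prefix, from 1 to 17, between 4.11% and 7.08% of the tested loci were at least 2-fold higher and between 1.84% and 3.29% at least 2-fold lower. The highest share of both was found at prefix 7, with 1003 loci tested. The lowest were at prefix 5 for higher and at prefix 4 for lower loci. No prefix lacked loci of either set.

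**Figure D5:**
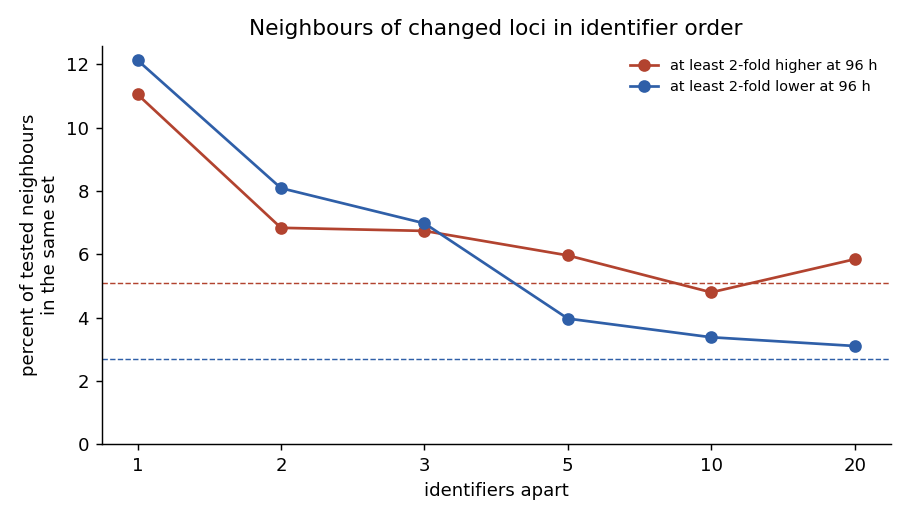
Percent of tested neighbours that belong to the same set, for loci at least 2-fold higher (red) and at least 2-fold lower (blue) at 96 h, by distance in identifier order; dashed lines give the share of all tested loci. Both curves start highest, at 11.0% and 12.1%, and lie near their dashed lines at a distance of 20.

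The listed transcripts of a locus were also looked at singly. Among loci at least 2-fold higher, 324 had 2 or more transcripts of at least 1 FPKM in 2 of the 4 libraries, and in all 324 every such transcript was higher on average at 96 h. Among loci at least 2-fold lower this held downwards in 186 of 188. Both sets were chosen by the sum of these transcripts, which largely fixes such a count. The transcript with the highest FPKM was the same in 79.6% to 81.0% of loci with several transcripts when a 48 h library was set against a 96 h library. Between the 48 h libraries it was the same in 80.0% and between the 96 h libraries in 81.1%. In 322 of 8401 loci whose leading transcript was the same within each time, it differed between the times. Libraries of the same time differed in it about as often as libraries of different times. No count from mixed pairs of libraries was made, so the 322 cannot be read as switches with time.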

How the data were processed

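Each library came as a deposited table of FPKM by transcript. The word FPKM stands in the headers of the 0 h tables only. The later tables are headed by a sample number, and whole reads could be recovered from them under the definition of FPKM. HISAT2 2.1.0 and Bowtie2 2.2.3 appear in the submitters' processing notes, with no step assigned to them. What computed FPKM, and on which genome build and annotation, was not given in the sources used here. Every table ends at line 65536, at prefix 17 of the identifiers, and loci beyond were not analysed here.

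FPKM were summed over the transcripts of a locus, giving 36385 loci. Of these, 24511 had at least 1 FPKM in 2 or more of the 4 compared libraries and were tested, and 11874 were not, 3276 of which were at 0 in every compared library. The scale was log2(FPKM + 1), which understates the change of low loci. A model with 1 mean per time was fitted to the 16 libraries after cutting with limma 3.58.1 in R 4.3.3, with trend and robust variance, two-sided. The 0 h tables, headed differently, stayed out.

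Read totals and lengths were searched so that every value is a whole number of reads within 0.01: of 60197 transcripts present in 6 or more of the 16 libraries, all 60197 gave a length, and 0 of 2000 did with randomly shifted values. These totals are the smallest that made all lengths whole, and a whole multiple of them would serve as well. Reads speak to counting error only. A read is worth 0.0163 to 0.0167 FPKM for a transcript of 2 kb in the compared libraries.

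The fit was tested on simulated data, where 7.57% of the calls were false, above the nominal share set by an adjusted p of 0.05. Each of 5 runs changed 200 of 24430 loci and gave all loci the same spread of 5.78% beyond counting error. In the real data 33.7% of the tested loci were called, and the spread may differ between loci. The simulated share therefore does not carry over to the calls made here. The comparison and the lists were chosen with earlier results of these data known. The planned gene lists could not be matched, since the tables do not pair identifiers with names. Named loci are the 2 largest rises and the 2 largest falls among called loci with separated libraries and at least 5 FPKM in both libraries of the higher time. Descriptions by course, level, length and identifier order were chosen after the data were seen.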

Additional observations from a re-analysis of the deposited data

How the results depend on the processing

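The 4 counts of changed loci were recomputed with other scalings, pseudocounts, filters, libraries and fits. Leaving out 1 of the 4 libraries gave between 3350 and 4118 loci higher in place of 5310, between 1745 and 2306 lower in place of 2957, between 1205 and 1317 at least 2-fold higher, and between 590 and 767 at least 2-fold lower. The lowest totals, 5095 and 5693 in place of 8267, came from leaving out 96 h replicate 2 and, next, 48 h replicate 2. The lone library of a time was then taken to vary like the other times. Quantile normalization gave 1020 loci at least 2-fold lower in place of 663, and the cause was not tested. With at least 1 FPKM in all 4 libraries 22089 loci were tested, and 691 were at least 2-fold higher in place of 1246. That filter leaves out every locus below 1 FPKM in a compared library. Of the 1246, 502 had a 48 h mean under 1 FPKM, and of the 663 at least 2-fold lower, 98 had a 96 h mean under 1 FPKM. Among loci with 1 listed transcript, 12473 in all, 2587 were higher and 1500 lower. A pseudocount of 0.1 gave 598 loci at least 4-fold higher and 185 lower, and limma-voom on recovered reads 581 and 202; the latter counts 0 reads for transcripts present in fewer than 6 libraries. No called locus was called in the opposite direction under any of these settings. The settings reuse the same libraries, which makes such a turn unlikely from the start.

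The last digit of the sample titles could number replicates. Equal numbers of 48 h and 96 h had deviations correlated at -0.12. Over all 28 pairs of times the correlation lay between -0.21 and 0.23 and exceeded 0.1 in 3. What the numbers stand for is not given, and these correlations cannot settle whether libraries of equal number share plants or a batch. A fit with the replicate block called 5179 loci higher and 2976 lower. With the 96 h numbers crossed, chosen after seeing the data, it called 5270 and 3051. Library weights, added after seeing the data, called 5765 and 3314, and a fit of the 6 libraries of 24, 48 and 96 h, added likewise, 5144 and 3214. Potri.001G107800 lost its call when the 4 compared libraries were fitted alone. Potri.003G111300 and Potri.003G206500 gave no value at 1 FPKM in all 4 libraries, nor the latter and Potri.001G107800 with 1 listed transcript. The named loci kept their calls wherever else they were tested.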
